A study of Mus musculus with 8 samples.

Results

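Transcripts of bile duct and epithelial keratin genes were compared between mouse livers given an adenovirus labelled AdLeXis and livers given one labelled AdGFP. The genes were Krt7, Krt8, Krt18, Krt19, Krt23, Epcam, Sox9, Spp1 and Cd24a, and every non-control probe whose gene name in the scanner files was one of these was taken. That gave 9 genes and 10 probes, of 34947 genes and 55681 probes on the array. Krt8 had 2 probes, and the Sox9 probe was spotted 10 times on each array. All 9 genes and all 10 probes were well above background on all 8 arrays, so none was lost to the filter that left 23985 genes for testing.

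The study measured total liver RNA on 8 one-colour arrays, 4 of AdLeXis livers and 4 of AdGFP livers. LeXis is a long non-coding RNA of mouse liver, and the series title describes its overexpression. Both groups were mice labelled bl6, aged 12 weeks, fed chow, with RNA taken on day 6, so both carried an adenovirus and no liver without virus was analysed here. The free text on treatment speaks instead of a vector with an shRNA to Raly and its control; arrays were grouped by the treatment tag, and the Raly probe differed by 0.18 on the log2 scale (SE 0.12, adjusted p = 0.341). No probe carries the name LeXis, so the level of the transgene was not checked. The labels do not say whether each array was a separate animal, so p-values measure only the spread between these samples.

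Keratins are intermediate filament proteins that assemble from pairs of a type I and a type II chain. Hepatocytes hold the pair of Krt8 (type II) and Krt18 (type I), and bile duct cells hold that pair together with Krt7 (type II) and Krt19 (type I). Bile duct cells and liver progenitor cells are also known by the adhesion protein Epcam, the transcription factor Sox9, the secreted glycoprotein osteopontin (Spp1) and the surface sialoglycoprotein Cd24a, while Krt23 is a type I keratin that is raised in mouse liver after injury. In whole liver, fewer cells of a type and less RNA per cell cannot be told apart.

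The keratin pair on chromosome 15 and Krt23 carry the largest differences, so their probes are shown. The file headers give mouse build mm9 for all positions. The Krt8 probe printed lay at chr15:101828827-101828886 on the minus strand, with 1 of its 3 forward reading frames free of stop triplets, and the other lay at chr15:101827138-101827197. The Krt18 probe lay at chr15:101862341-101862400 on the plus strand, with 33454 bases between the nearest Krt8 probe and it, and its capitals mark the first TGA of the longest open frame, where the printed 52 bases end. The Krt23 probe lay in the type I keratin region of another chromosome, at chr11:99339393-99339452 on the minus strand, and its first 30 bases are given.
Krt8: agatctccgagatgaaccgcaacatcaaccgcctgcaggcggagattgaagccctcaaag
Krt18: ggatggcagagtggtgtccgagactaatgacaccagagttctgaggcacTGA
Krt23: tccgcgctaatgggtgagtctcgacggaaa

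Krt18 was 2.04-fold lower and Krt8 1.80-fold lower in AdLeXis livers, and Krt23 was 4.64-fold higher. Epcam and Cd24a were lower by a smaller margin, at -0.53 and -0.58 on the log2 scale. In limma's test across all genes, 5 of the 9 passed an adjusted p of 0.05, where 17.4% of all genes passed. Of the 5, 1 was higher and 4 were lower, beside 8.96% and 8.46% of all genes. By probe, 1 of 10 was higher and 5 were lower, beside 7.85% and 6.93% of all probes. For the same 5 genes the 4 AdLeXis arrays lay on one side of the 4 AdGFP arrays, as for 24.6% of all genes. The 9 genes were chosen with earlier results of these data known. These counts therefore describe the 9 genes and do not test for an excess over all genes. Krt7, Krt19, Sox9 and Spp1 did not pass. The median log2 difference over the 9 genes was -0.28, and 0.0046 over all genes tested.

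**Figure D1:**
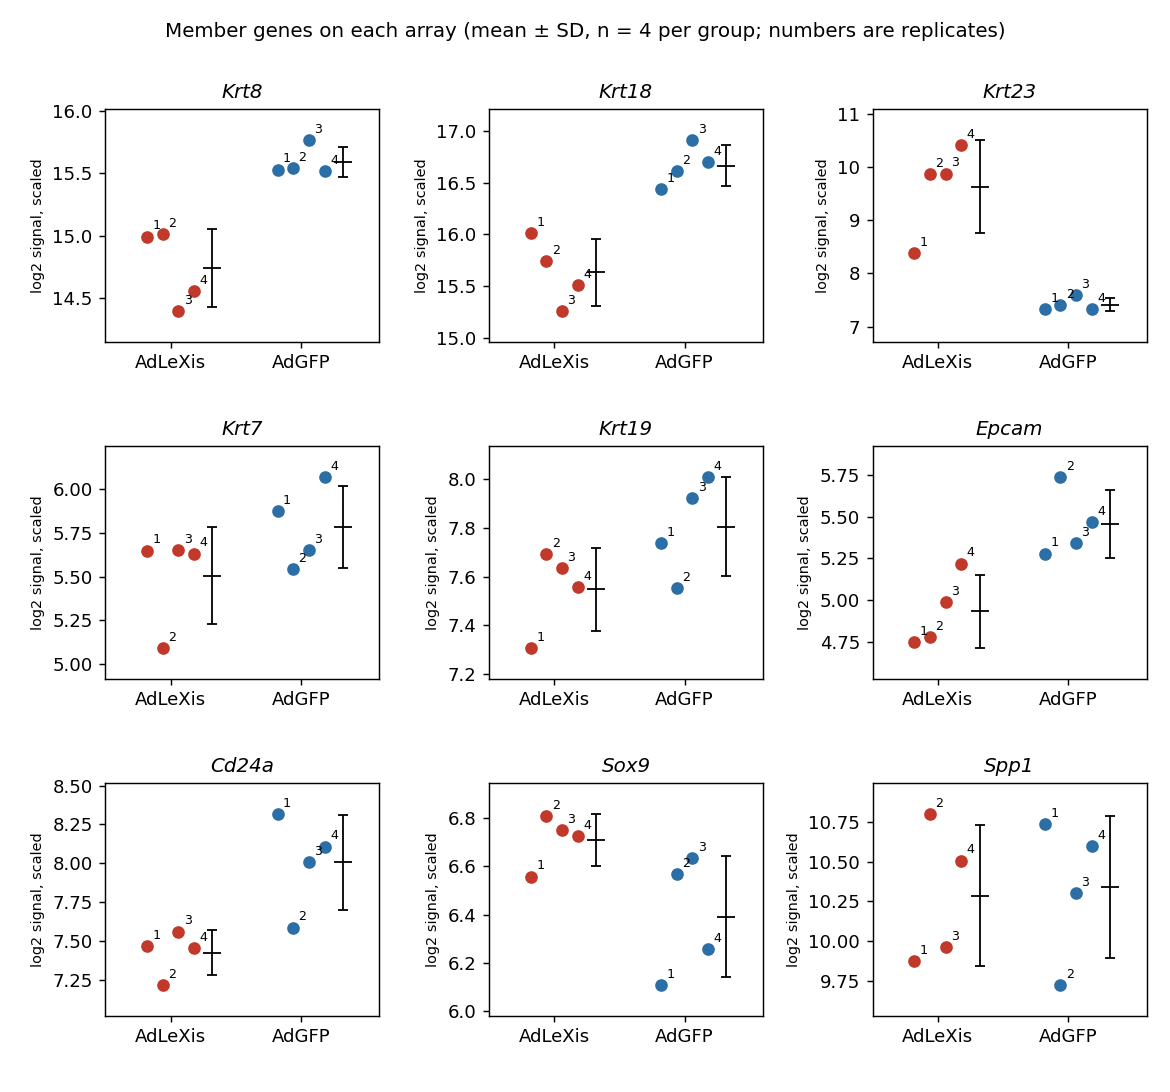
Each panel plots the log2 signal of 1 gene on each array after scaling (y axis), with the 4 AdLeXis arrays in red on the left and the 4 AdGFP arrays in blue on the right; bars are mean ± SD and small numbers are replicates. Krt8, Krt18, Epcam and Cd24a lie lower in AdLeXis and Krt23 higher, with no overlap, while the arrays of both groups overlap for Krt7, Krt19, Sox9 and Spp1.

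Krt18, the type I chain of the hepatocyte pair, had log2 signals of 16.01, 15.75, 15.26 and 15.51 on the 4 AdLeXis arrays, against 16.44, 16.61, 16.91 and 16.70 on the 4 AdGFP arrays. The groups did not overlap, and the AdLeXis arrays were spread more widely (SD 0.32 against 0.20, n = 4 each). The difference was -1.03 (SE 0.17, 95% interval -1.42 to -0.64, adjusted p = 0.00634). Krt8, its type II partner, had 14.99, 15.01, 14.40 and 14.55 on the AdLeXis arrays, against 15.53, 15.54, 15.77 and 15.52 on the AdGFP arrays. Again every AdLeXis array was below every AdGFP array, and AdLeXis replicates 3 and 4 were the lowest arrays for both chains. The Krt8 difference was -0.85 (SE 0.15, 95% interval -1.20 to -0.49, adjusted p = 0.00901).

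The other Krt8 probe, whose sequence is printed above, reads another stretch of the same transcript, and being on the same arrays it is no further replicate. It had 13.64, 13.76, 13.18 and 13.39 on the AdLeXis arrays, against 14.09, 14.18, 14.47 and 14.35 on the AdGFP arrays. Its difference was -0.78 (SE 0.15, adjusted p = 0.0120 over all probes, of which 14.8% passed). Both probes gave the same order of the groups.

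These falls are relative to the other transcripts of each array. Before scaling the AdLeXis arrays were brighter, with a 75th percentile of intensity of 381 to 448 against 219.6 to 297 on AdGFP arrays. Unscaled Krt18 intensity ran from 53205.5 to 76279.1 on AdLeXis arrays, against 61515.6 to 106256 on AdGFP arrays, and the groups overlapped. Without any scaling the Krt18 difference was -0.29 (adjusted p = 0.201) and the Krt8 difference was -0.11 (adjusted p = 0.615), while the median over all genes was 0.74. Under the 6 other scalings and background corrections tried, Krt18 differed by -1.11 to -0.76 and Krt8 by -0.93 to -0.74, each passing the test every time. Every difference given here is likewise relative to the other transcripts, though not every call was lost without scaling. There, 5 of the 9 genes and 67 genes of the 6 related lists passed as higher and 0 as lower, with Krt23 at 2.95. No spot was saturated (0 on each array).

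Many transcripts with signals as bright as Krt18 were lower too. Of the 374 genes with a mean log2 signal of 16 to 18, 125 were lower and 3 higher, with a median difference of -0.20. Of the 1115 genes at 14 to 16, where Krt8 lies, 104 were lower and 45 higher, with a median of -0.050. Among hepatocyte markers 11 of 17 passed as lower and 0 as higher (median -0.38), and their mean log2 signal was 16.51 to 16.69 on AdLeXis arrays and 16.91 to 17.07 on AdGFP arrays. That hepatocyte count was 2 lower with a median of -0.016 under quantile scaling, and 1 lower and 1 higher with a median of -0.10 under quantile scaling after normexp background correction. The part of these in the Krt8 and Krt18 differences was not tested.

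The Krt8 and Krt18 genes are neighbours that point away from each other, with 2 RefSeq genes wholly between them (Gm36026 and Gm41404). Because the pair moved together, the RefSeq promoter windows of both are given, from 250 bases before to 50 bases after the annotated start in assembly GRCm38.p6: chr15:102004293-102004592 on the minus strand for Krt8 and chr15:102027966-102028265 on the plus strand for Krt18. Capitals mark the letters TATAAA, searched on the gene strand.
Krt8: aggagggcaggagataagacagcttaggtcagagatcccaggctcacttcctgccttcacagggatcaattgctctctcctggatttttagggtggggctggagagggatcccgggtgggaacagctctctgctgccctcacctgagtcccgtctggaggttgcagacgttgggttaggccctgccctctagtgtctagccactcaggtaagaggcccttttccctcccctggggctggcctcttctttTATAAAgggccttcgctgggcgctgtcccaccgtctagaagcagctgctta
Krt18: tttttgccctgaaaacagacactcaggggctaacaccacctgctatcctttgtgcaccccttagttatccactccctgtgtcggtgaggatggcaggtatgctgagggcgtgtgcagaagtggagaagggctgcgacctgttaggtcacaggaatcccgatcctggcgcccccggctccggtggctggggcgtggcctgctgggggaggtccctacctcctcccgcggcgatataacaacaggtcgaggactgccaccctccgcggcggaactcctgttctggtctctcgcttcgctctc

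The Krt8 window held TATAAA at base 250, at -1 from the annotated start, so the letters run across that start. The Krt18 window held none, where 8.32% of 32817 promoters hold TATAAA. The AP-1 letters TGANTCA (7.81% of promoters), the TEAD letters GGAATG (14.7%) and the GC box GGGCGG (35.6%), searched on both strands, were in neither window. Of the 9 genes, 6 had a promoter entry; the Krt7 window held 4 GC boxes, the Epcam window 1, a Spp1 window TATAAA at base 40, and the Krt23 window none of the 4 motifs. Krt19, Sox9 and Cd24a were not matched. A match is a description of letters only.

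Krt23, the injury-associated type I keratin, had log2 signals of 8.37, 9.87, 9.87 and 10.40 on the AdLeXis arrays, against 7.34, 7.40, 7.59 and 7.34 on the AdGFP arrays. All 4 AdLeXis arrays were above all 4 AdGFP arrays, and AdLeXis replicate 1 lay nearest to them. The AdLeXis arrays varied far more (SD 0.87 against 0.12, n = 4 each). The fit takes a common spread for both groups, so its SE, interval and adjusted p do not reflect this inequality. The difference was 2.21 (SE 0.38, 95% interval 1.35 to 3.08, adjusted p = 0.00697). It was 2.63 without AdLeXis replicate 1, and 1.91 to 2.63 over the 22 alternatives with scaled arrays, passing in each. The rise was also present before scaling, at 382.51 to 1792.67 on AdLeXis arrays and 108.137 to 165.866 on AdGFP arrays.

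The keratins that mark bile duct cells within the liver did not pass. Krt7, the type II chain (chr15:101253718-101253777), had 5.65, 5.09, 5.65 and 5.63 on the AdLeXis arrays, against 5.88, 5.54, 5.65 and 6.07 on the AdGFP arrays. AdLeXis replicate 2 stood low and the groups overlapped, with a difference of -0.28 (SE 0.17, 95% interval -0.66 to 0.10, adjusted p = 0.293). Krt19, the type I chain (chr11:100002392-100002451), had 7.31, 7.69, 7.63 and 7.56 on the AdLeXis arrays, against 7.74, 7.55, 7.92 and 8.01 on the AdGFP arrays. These overlapped as well, and the difference was -0.26 (SE 0.13, 95% interval -0.55 to 0.037, adjusted p = 0.210). The Krt19 interval holds falls of up to 0.55. Krt19 did pass as lower after normexp background correction, at -0.38 with 75th percentile scaling (adjusted p = 0.0128) and -0.34 with quantile scaling (adjusted p = 0.0322), and Krt7 passed with the first of these at -0.33 (adjusted p = 0.0357), where the median of all genes was -0.19.

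**Figure D2:**
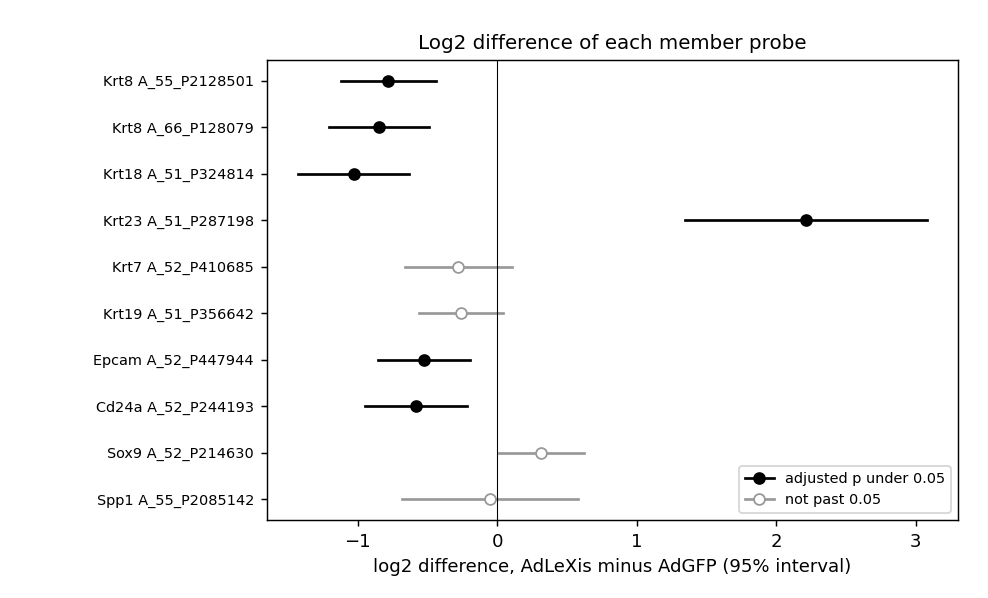
Points are the log2 difference of AdLeXis minus AdGFP for each of the 10 probes (rows, named by gene and probe), with 95% intervals as lines; filled points have an adjusted p under 0.05. Both Krt8 probes, Krt18, Epcam and Cd24a lie below 0, Krt23 lies at 2.21, and the intervals of Krt7, Krt19 and Spp1 cross 0.

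Epcam and Cd24a, both cell surface proteins of bile duct cells, passed by a small margin. Epcam had 4.75, 4.78, 4.99 and 5.22 on the AdLeXis arrays, against 5.28, 5.74, 5.34 and 5.47 on the AdGFP arrays. The highest AdLeXis array was just below the lowest AdGFP array, and the difference was -0.53 (SE 0.14, 95% interval -0.85 to -0.20, adjusted p = 0.0380). The Epcam probe joins 60 bases over a span of 829 bases at chr17:88048972-88049800, across an exon junction. Cd24a (chr10:43303706-43303765) had 7.46, 7.22, 7.56 and 7.45 on the AdLeXis arrays, against 8.32, 7.59, 8.01 and 8.11 on the AdGFP arrays. AdGFP replicate 2 was close to the AdLeXis arrays, and the difference was -0.58 (SE 0.16, 95% interval -0.94 to -0.22, adjusted p = 0.0386).

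Neither call was stable. With 1 array left out, Epcam passed in 2 of 8 fits (adjusted p 0.0295 without AdLeXis replicate 4 and 0.0495 without AdGFP replicate 1) and had 0.0577 to 0.0927 in the others. Cd24a passed in 1 of 8, at 0.0131 without AdGFP replicate 2, and had 0.0541 to 0.0934 in the others. Without scaling both differences were above 0, at 0.21 for Epcam and 0.16 for Cd24a, beside the median of 0.74 over all genes.

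Sox9, a transcription factor of bile duct and progenitor cells (chr11:112648809-112648868), had 6.56, 6.81, 6.75 and 6.72 on the AdLeXis arrays, against 6.11, 6.57, 6.63 and 6.26 on the AdGFP arrays. The lowest AdLeXis array lay within the AdGFP range. The difference was 0.32 (SE 0.13, 95% interval 0.016 to 0.62), and it did not pass after adjustment (adjusted p = 0.137). Its repeated spots differed by an SD of 0.046 to 0.088 within an AdLeXis array and 0.067 to 0.27 within an AdGFP array.

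Spp1, which encodes the secreted ligand osteopontin (chr5:104868502-104868561), had 9.87, 10.80, 9.96 and 10.51 on the AdLeXis arrays, against 10.74, 9.72, 10.30 and 10.60 on the AdGFP arrays. High and low arrays occurred in both groups, with an SD of 0.44 in AdLeXis livers and 0.45 in AdGFP livers (n = 4 each). The difference was -0.053 (SE 0.27, adjusted p = 0.922), and its 95% interval of -0.68 to 0.58 leaves room for a change of either sign.

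Among receptors for osteopontin and Cd24a, 2 of 10 passed as lower and 0 as higher, with a median of -0.036. Itga4, the integrin chain that lymphocytes use to bind osteopontin and vascular adhesion molecules, fell by 0.83 (adjusted p = 0.00240). Cd44, a receptor for hyaluronan and osteopontin, differed by -0.48 (adjusted p = 0.0422) and did not pass with 6 of the single arrays left out. In the same livers 15 of 16 T and NK cell markers passed as lower (median -1.02), with a mean log2 signal of 8.32 to 8.56 on AdLeXis arrays and 9.25 to 9.33 on AdGFP arrays. The exception, Ncr1, named after its value was seen, differed by 0.74 (adjusted p = 0.0933). With 1 array left out, 13 to 14 of the T and NK cell markers were lower, and 1 was higher without AdGFP replicate 3. The part of those cells in the Itga4 and Cd44 values was not tested.

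Other bile duct genes gave no shared direction. Of 28 on the array 26 were tested, and 2 were higher and 0 lower, with a median of 0.0046. After normexp correction with 75th percentile scaling 4 were higher and 9 lower, with a median of -0.13 beside -0.19 for all genes. Wfdc2, a secreted protease inhibitor-like protein of epithelia, had mean log2 signals of 11.54 ± 0.35 in AdLeXis livers and 9.42 ± 0.42 in AdGFP livers (SD, n = 4 each), a difference of 2.12 (SE 0.24, adjusted p = 0.00149). Slc10a2, the apical sodium-dependent bile acid transporter, differed by 0.81 (SE 0.19, adjusted p = 0.0228). Slc10a2 passed in 17 of 22 alternatives. It did not pass without AdLeXis replicate 2 or 4 or AdGFP replicate 2 or 4, or with the replicate number as a block. Cftr, the chloride channel of bile duct cells, was not well above background on any array.

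Of 49 other keratin genes on the array, 25 were tested, and 2 were higher and 2 lower (median -0.022). Krt10, a type I keratin of upper epidermis, was higher by 0.54 (adjusted p = 0.00681), but Krt10 did not pass after normexp correction, at 0.19 with 75th percentile scaling and 0.26 with quantile scaling. Krt28, a type I keratin of the hair root sheath, was higher by 0.80 (adjusted p = 0.00779). Krt28 turned to -0.17 after normexp correction with 75th percentile scaling, where 15 of the 25 keratins passed as lower. Krt85, a type II hair keratin, fell by 0.86 (adjusted p = 0.00815) and Krt13, a type I keratin of mucosa, by 0.85 (adjusted p = 0.00894); Krt13 was named after its values were seen, and it stood at -0.18 and did not pass (adjusted p = 0.0577) after normexp correction with quantile scaling. Besides Krt85, the keratins with the highest mean signal were Krt31 at 0.063 and Krt222 at 0.17, and neither passed.

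Krt85 was the gene whose arrays followed Krt18 most closely. Taken as deviations from the group mean over the 8 arrays, their Pearson r was 0.99, the highest of any gene outside the 9. The 3 Krt85 probes did not give 1 picture. The bright one, which the files leave unmapped, had 10.18 ± 0.26 in AdLeXis livers and 11.04 ± 0.20 in AdGFP livers (SD, n = 4 each). The next had 6.35 ± 0.31 in AdLeXis livers and 6.73 ± 0.13 in AdGFP livers, a difference of -0.38 (adjusted p = 0.149 over all probes), and the third was not well above background on any array. Which transcript the bright probe captured was not tested.

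For the other genes the closest pattern by the same measure had an r of 0.97 to 0.99, in genes or transcribed regions with no keratin name. They included Tom1l2 for Krt19 (0.97), D030056L22Rik for Krt23 (0.99), 9030625N01Rik for Epcam (0.97) and Tmem9b for Spp1 (0.97). With 8 points and 23985 genes to choose among, such values are a description of these arrays.

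**Figure D3:**
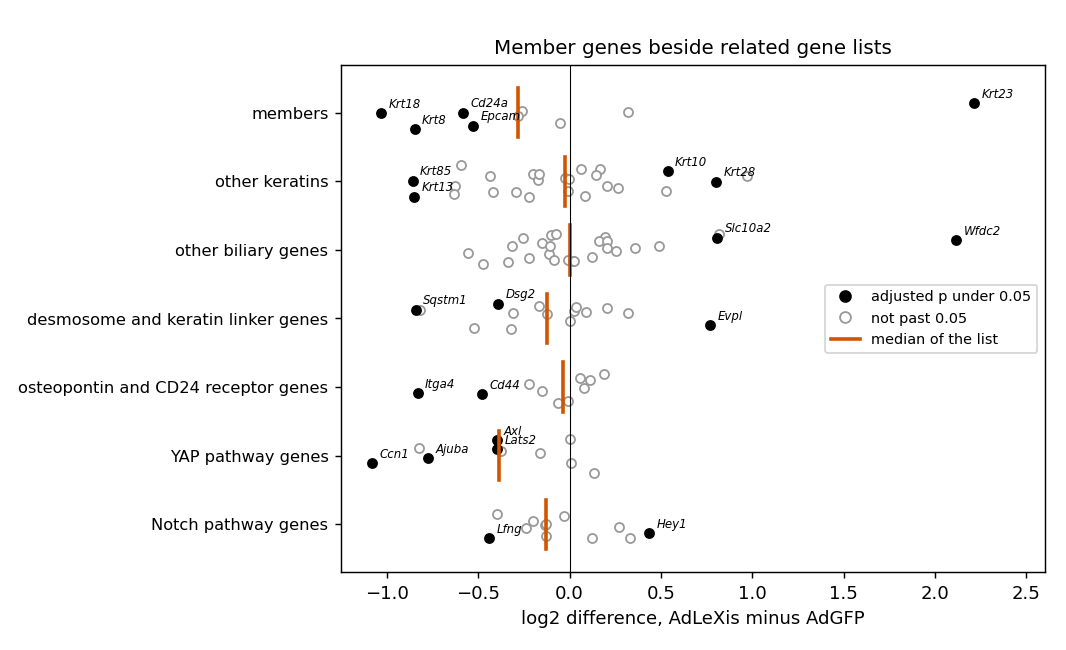
Each point is 1 gene's log2 difference of AdLeXis minus AdGFP (x axis), in rows for the 9 genes and for 6 related lists; filled, named points have an adjusted p under 0.05 and orange lines are list medians. Krt23 and Wfdc2 lie beyond 2, the YAP pathway median lies at -0.38, and the medians of other biliary genes and other keratins lie near 0.

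Desmosomes and plakin linkers tie keratin filaments to the cell border. In a list of 15 genes of desmosomes, linkers and other keratin partners, among them Sqstm1, 1 was higher and 2 were lower (median -0.13). Sqstm1, the autophagy receptor that collects with Krt8 and Krt18 in the Mallory-Denk bodies of injured hepatocytes, fell by 0.84 (adjusted p = 0.00316). Sqstm1 did not pass after normexp correction with quantile scaling, at -0.52, or on its second brightest probe, at -0.33. Evpl, the plakin envoplakin, was higher by 0.77 (adjusted p = 0.00458). Dsg2, a desmosomal cadherin, differed by -0.39 (adjusted p = 0.0484) but by 0.0074 after normexp correction with 75th percentile scaling.

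YAP and Notch signalling are known to steer liver cells toward a bile duct fate. Of 10 YAP pathway genes 4 were lower and 0 higher, with a median of -0.38. These genes have different roles in the pathway, so the count and median do not give a direction of signalling. After normexp correction the median was -0.18 with quantile scaling and -0.27 with 75th percentile scaling, and the count was 2 without AdLeXis replicate 2 or 4 or AdGFP replicate 1. The 4 were the secreted matrix protein Ccn1, which fell by 1.08 (adjusted p = 0.00114), the LIM protein Ajuba, which fell by 0.77 (adjusted p = 0.0166), the kinase Lats2, at -0.39 (adjusted p = 0.0213), and the receptor kinase Axl, at -0.40 (adjusted p = 0.0475). Yap1 itself, named after its value was seen, differed by 0.0047. Ccn1 and Ajuba passed in all 22 alternatives, Lats2 in 15 and Axl in 8. Of 12 Notch pathway genes tested, 1 was higher and 1 lower (median -0.13), and Jag2 and Hes1 stayed below the background limit throughout. Hey1, a target gene, differed by 0.44 (adjusted p = 0.0368) and by -0.065 after normexp correction with 75th percentile scaling. Lfng, a glycosyltransferase that modifies Notch, differed by -0.44 (adjusted p = 0.0435) and passed in 13 of 22 alternatives, in 2 of which 1 array was left out.

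Markers of other cells in the liver moved in the same arrays. Kupffer and macrophage markers were lower for 7 of 16, with a list mean of 10.92 to 11.07 on AdLeXis arrays and 11.19 to 11.53 on AdGFP arrays. The Kupffer and macrophage count was 5 to 9 with 1 array left out. In that list 13 genes lay below 0 and 3 above, and none of the 3 passed. The 3, named after their values were seen, were Clec4f (0.10), Vsig4 (0.51) and Trem2 (0.55). Stellate and fibroblast markers were lower for 5 of 14, at 9.66 to 9.99 on AdLeXis arrays and 10.05 to 10.36 on AdGFP arrays. Thy1 had the largest of the 5 falls, at -1.08. In that list 2 genes, named after their values were seen, lay above 0: Lrat (0.17) and Reln (0.056). Proliferation markers were higher for 14 of 17, at 10.00 to 10.34 on AdLeXis arrays and 9.11 to 9.27 on AdGFP arrays. With 1 array left out the proliferation count was 7 to 13 (7 without AdLeXis replicate 4, 8 without AdGFP replicate 1, 9 without AdGFP replicate 4), and it was 9 under median scaling. The stellate count was 2 to 5, at 2 without AdLeXis replicate 2 and at 3 without AdLeXis replicate 3 or 4 or AdGFP replicate 1 or 4. B cell markers (0 of 7), neutrophil markers (0 of 9) and endothelial markers (0 of 13) did not pass in either direction in limma's test, with 1, 0 and 0 at an unadjusted p under 0.05, and 1 of 6 erythroid markers was higher. That marker, Ahsp, had an adjusted p of 0.0483, passed in 7 of 21 alternatives and turned to -0.29 after normexp correction with 75th percentile scaling. Under that setting, where the median of all genes was -0.19, 5 of 7 B cell and 3 of 9 neutrophil markers passed as lower. Of the endothelial markers 3 were higher and 2 lower there. Quantile and median scaling each gave 1 B cell marker lower. No list had a tested marker below background on all arrays of a group. The part of these cells in the keratin and bile duct gene values was not tested. All 8 arrays were on 1 slide and were scanned in 1 scan, AdLeXis arrays in its row 2 and AdGFP arrays in its row 1, so slide row and group cannot be told apart.

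**Figure D4:**
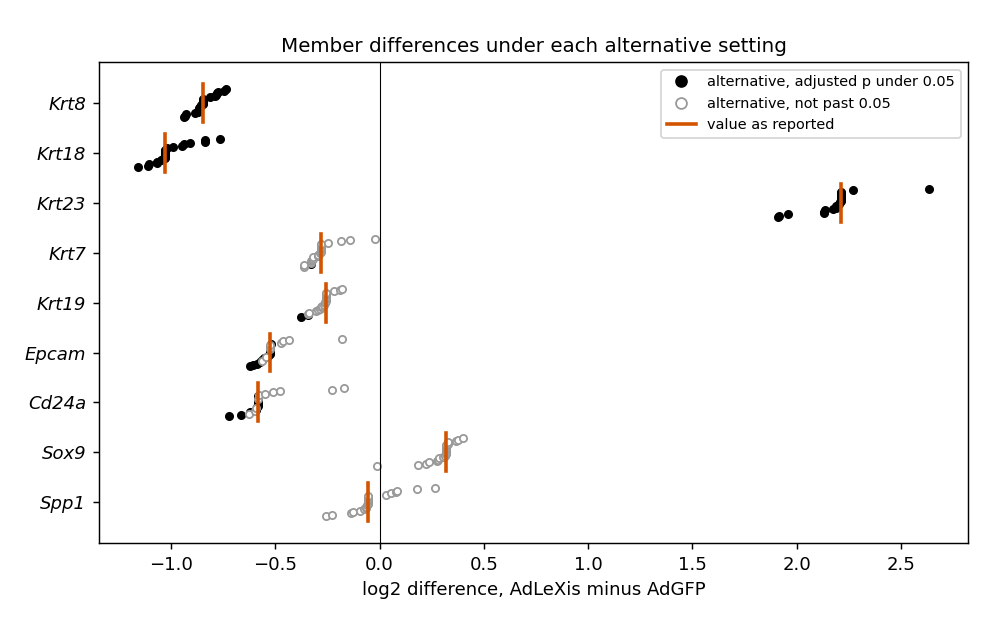
Points are the log2 difference of AdLeXis minus AdGFP for each of the 9 genes (rows) under the 22 alternative settings with scaled arrays, filled where the adjusted p was under 0.05; the orange line is the value as reported. Krt8, Krt18 and Krt23 are filled in every setting, Epcam in 13, Cd24a in 12, Krt19 in 2, Krt7 in 1, and Sox9 and Spp1 in 0. Changes of filter, variance model and block leave a difference as it was, as do changes of probe choice for genes with a single probe.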

How the data were processed

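Liver RNA was measured on 8 arrays. The deposited scanner files hold spot intensity, made with Agilent's Feature Extraction (version 11.5.1.1 per the file headers, 11.5.1.11 per the submitters' processing notes). This intensity was background-subtracted without scaling arrays to each other, and the series value table holds the same values.

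The log2 of the processed intensity was scaled to each array's 75th percentile, without controls and outlier-flagged spots (127 to 256 an array), and spots of a probe were averaged. A probe was kept when well above background (at least 50% of its spots) on 4 or more arrays with 2 or more measured per group. The kept probe of highest mean stood for its gene. Probes were named by accession (27656) or symbol (3401) through a RefSeq table of GRCm38.p6; 24624 kept their file name.

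Groups were compared with limma 3.58.1 (lmFit, eBayes; R 4.3.3), two-sided, with Benjamini-Hochberg adjustment over all genes (probes where stated) at 0.05; the fit was tested on simulated data. Genes named were the 9, up to 4 of smallest p per list past the threshold, the 3 other keratins of highest signal and of smallest p, and the nearest pattern per gene. Some items are not reported here. Members and lists were chosen with earlier results of these data known. Array number limits the precision. Alternatives changed scaling, background correction, filter, variance model, outlier spots, probe choice, replicate block and arrays left out.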

Additional observations from a re-analysis of the deposited data

Results flagged for a closer look

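Of 20 sets of 4 arrays (10 probes in each group), 2 had an array far from the other 3 by Dixon's ratio, above the critical value of 0.829; chance gives about 1 in 20. For Krt7, AdLeXis replicate 2 stood at 5.09 while the others lay at 5.63 to 5.65 (ratio 0.964). For the brighter Krt8 probe, AdGFP replicate 3 stood at 15.77 while the others lay at 15.52 to 15.54 (ratio 0.903). The Krt8 call passed with every array left out in turn.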

How the results depend on the processing

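Krt8, Krt18 and Krt23 passed in the same direction in all 22 alternatives with scaled arrays. The 22 are not independent checks. Changes of filter, variance model and block left these differences as they were and moved only the adjusted p. So did changes of probe choice for Krt18 and Krt23, which have a single probe each. The alternatives moved other values as follows, and causes were not tested. Normexp correction with 75th percentile scaling gave 9521 genes lower and 3043 higher, against 2028 and 2150, and 43 genes of the related lists lower and 9 higher, against 11 and 6, while its all-gene median was -0.19. It also gave -0.014 for Sox9 and 0.27 for Spp1, and normexp with quantile scaling gave 0.18 for Spp1. Cd24a did not pass under either (adjusted p = 0.141 and 0.352), nor Epcam under the second (0.154). Median scaling gave 1177 genes higher and 2547 lower. With no filter on dim probes, 1467 of 34947 genes were lower and 1442 higher, and 2 member genes, 3 member probes and 7 related genes were lower. The second brightest probe gave 6 related genes lower. Leaving out 1 array gave 1235 to 2109 genes higher, 1245 to 2007 lower, 2 to 3 member genes lower, 3 to 4 member probes lower, 4 to 6 related genes higher, 6 to 10 related genes lower, and -0.26 to 0.084 for Spp1. Only 2 member genes were lower without AdLeXis replicate 1, 2 or 3 or AdGFP replicate 3 or 4. Without AdLeXis replicate 4, 1235 genes were higher and 1245 lower; without AdLeXis replicate 2, 1377 were higher; without AdGFP replicate 1, 1323 were lower.

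Replicate number was also the slide column in both groups, so same-numbered arrays shared a column. In their deviations from the group means they correlated at 0.0017 to 0.12, against -0.10 to 0.10 for other pairs. The main fit did not use this pairing. With the replicate number as a block, 1585 of 23985 genes were lower and 1562 higher, 3 member probes were lower and Epcam did not pass (adjusted p = 0.0691). The dimmer Krt8 probe, whose sequence is printed above, did not pass there either (adjusted p = 0.0551 over all probes).

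No scaling between arrays, an alternative added after seeing the data, gave 19063 genes higher and 107 lower, 5 member genes and 5 member probes higher and 0 lower, and 67 related genes higher and 0 lower. It turned Krt7 (0.46), Krt19 (0.48), Epcam (0.21), Spp1 (0.68) and Cd24a (0.16) above 0. Krt7, Krt19 and Spp1 passed there, as did Sox9 at 1.06, while Epcam and Cd24a did not. Limits are 4 arrays a group and a group bound to slide row.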
